A study of Mus musculus with 22 samples.

Results

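The 10 genes described here are 7 immediate early genes and 3 heat shock genes. The immediate early genes were Fos, Fosb, Jun and Junb, which encode subunits of the AP-1 transcription factor, Egr1, a zinc finger factor, Atf3, a stress-induced member of the ATF/CREB family, and Nr4a1, an orphan nuclear receptor. The heat shock genes were Hspa1a and Hspa1b, neighboring genes for the inducible HSP70 chaperone, and Dnajb1, an HSP40 cochaperone that passes unfolded proteins to HSP70. They were taken as a list of names, with no threshold on their values, from the 31053 genes of the count tables, and all 10 passed the filter on low counts in each comparison below. Between ntCZC and tissue that filter asks for counts in enough libraries of either kind, so a gene low in ntCZC can pass through tissue alone.

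Immediate early genes are switched on within minutes of a stimulus by factors already present in the cell, such as SRF and CREB, and their transcripts are short-lived. Heat shock genes are switched on by HSF1 when proteins unfold, and their products refold or remove such proteins. Both groups are known to respond when cells are released from a solid organ by enzymes, and immediate early genes also respond to the normal activation of lymphocytes and myeloid cells.

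The libraries were single-cell RNA profiles of mice without tumors, made by droplet capture. Circulating ZsGreen-positive cells (ntCZC) had been sorted by flow cytometry from blood and were profiled in 10 libraries, 2 Nalcn wt aged 571 to 608 days, 4 het aged 551 to 649 days and 4 null aged 551 to 613 days. Organs (lung, liver, stomach, kidney and uterus or epididymis) had been digested with collagenase, dispase or papain, marked by hashtag antibodies and pooled in 9 tissue libraries, 5 wt aged 571 to 654 days, 2 het aged 551 days and 2 null aged 552 to 611 days. Blood mononuclear cells (PBMC) came from 1 wt library at 120 days. All mice, controls included, carried Prom1-CreERT2, which makes a recombinase switched on by tamoxifen in cells that use the Prom1 promoter, and the Rosa26ZSG reporter, and Nalcn encodes a sodium leak channel that the recombinase deletes in cells with a history of Prom1 expression. No label names an animal, so n counts libraries and p-values measure the spread between libraries. Enzyme digestion, organ origin and the sort all followed the kind of library, so their parts in any difference between ntCZC and tissue cannot be told apart. Neither can fewer cells of a type and less RNA per cell, where levels of whole libraries are compared.

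The ntCZC libraries held 161541 to 2600526 unique molecular identifiers (UMIs), the tissue libraries with a group 8571019 to 139793927 and the PBMC library 1422144. Mitochondrial genes took 2.04% to 6.38% of UMIs in ntCZC, 20.8% to 52.3% in tissue and 4.06% in PBMC. Levels are given as CPM, the share of a library's UMIs that a gene took, scaled alike in all libraries to counts per 1000000 UMIs. Haemoglobin genes took 73.5% of UMIs in ntCZC wt replicate 3 and 25.2%, 32.4% and 25.3% in ntCZC null replicates 1, 3 and 4. In the other ntCZC libraries they took at most 6.16%. Such shares lower the CPM of other genes in the same library. Tissue null replicate 3, labelled female, held the Y-linked Ddx3y at 16.3 CPM beside Xist at 1347. Nalcn had no UMI in any ntCZC or PBMC library and at most 0.386 CPM in tissue, so these counts gave no check of the deletion. Cell barcodes shared with another library made up 122 of 2501 ntCZC, 38 of 752 PBMC and 7694 of 176676 tissue barcodes. Each comparison used the edgeR quasi-likelihood test on UMIs summed per library, with sex as a covariate, and a gene was called at an adjusted p under 0.05 over all genes tested.

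Hspa1a and Hspa1b were far lower in ntCZC than in tissue, Fosb, Egr1 and Dnajb1 were lower, and Junb was higher. In all, 6 of the 10 genes were called, 5 lower and 1 higher, when 64.5% of 10681 genes tested were called, 36% lower and 28.5% higher. The number of calls among the members was therefore close to that over all genes. The median log2 change was -3.98 over the 3 heat shock genes, of which Dnajb1 was at -1.08, and -0.39 over the 7 immediate early genes. Over all genes tested it was -0.08, a signed median in which higher and lower genes offset each other. It does not give the usual size of a change, and the share of all genes that changed as much is not given here. For Fosb, Hspa1a and Hspa1b every ntCZC library lay below every tissue library, as did 14.4% of the genes tested.

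Hspa1b lies at chr17:34956436-34959238 on the minus strand of GRCm38. It ran from 0 to 16.8 CPM in the 10 ntCZC libraries, with a median of 10.2, and from 253.8 to 511.7 CPM in the 9 tissue libraries, with a median of 343.2. The means were 9.38 ± 5.70 (SD, n = 10) and 358.5 ± 80.2 (SD, n = 9), a ratio of 38.2, and the ntCZC level rested on 133 UMIs in all. The log2 change was -5.25 ± 0.31 (SE), with an edgeR adjusted p of 2.47e-11. Hspa1a, at chr17:34969190-34972156 on the same strand, ran from 0 to 48.5 CPM in ntCZC (median 14.1) and from 154.9 to 441 CPM in tissue (median 246.9). Its means were 17.2 ± 13.8 (SD, n = 10) and 264.8 ± 96.4 (SD, n = 9), and its log2 change was -3.98 ± 0.36 (SE), with an edgeR adjusted p of 6.94e-09. The gap was wide for both genes: the ntCZC library with most Hspa1a, het replicate 2, was at 48.5 CPM, under the lowest tissue library, wt replicate 5, at 154.9.

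Near-identical copies can share reads. The transcripts of Hspa1a and Hspa1b were 84.3% identical over their whole length but 46.8% identical over their last 500 bases, where reads of a 3' library fall. Their summed level, which does not depend on how reads were split, was 623.3 ± 170 CPM (SD, n = 9) in tissue against 26.6 ± 18.4 CPM (SD, n = 10) in ntCZC, and the ranges, 0 to 61.9 and 419 to 952.7, did not overlap.

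The promoters of these copies are printed because they were the members that differed most between the kinds of library and moved together, with those of Jun and Fos for contrast. RefSeq promoters (GRCm38.p6) were searched for 9 of the 10 genes, and the promoter of Egr1 was left out. The sequences are the 150 bases before the start site, 5' to 3' on the strand of the gene, with matches to the motifs searched in capitals. They lie at chr17:34972157-34972306 (minus), chr17:34959239-34959388 (minus), chr4:95052223-95052372 (minus) and chr12:85473740-85473889 (plus), in the order printed.
Hspa1a: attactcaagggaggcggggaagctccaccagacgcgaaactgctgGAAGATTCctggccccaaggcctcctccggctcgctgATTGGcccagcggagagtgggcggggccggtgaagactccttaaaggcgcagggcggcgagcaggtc
Hspa1b: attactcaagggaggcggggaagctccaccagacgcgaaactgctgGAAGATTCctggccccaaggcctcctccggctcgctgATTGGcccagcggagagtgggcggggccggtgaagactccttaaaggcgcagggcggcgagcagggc
Jun: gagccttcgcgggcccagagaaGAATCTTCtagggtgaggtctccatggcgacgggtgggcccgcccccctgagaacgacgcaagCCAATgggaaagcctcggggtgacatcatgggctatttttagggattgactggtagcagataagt
Fos: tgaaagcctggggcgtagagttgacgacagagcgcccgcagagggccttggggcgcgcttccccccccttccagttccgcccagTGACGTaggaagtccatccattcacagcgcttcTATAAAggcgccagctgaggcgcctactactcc

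In the Hspa1 sequences the capitals are the head-to-head heat shock element pattern GAANNTTC, starting 104 bases before the start site, and a CCAAT box, written here from its other strand as ATTGG, at 67 bases before it. The Hspa1a and Hspa1b sequences printed differ at 1 of 150 positions. Jun, which was not called between ntCZC and tissue but was called lower in ntCZC under several alternatives given below, held the same pair of patterns, GAANNTTC at 128 bases and CCAAT at 65 bases before its start site. In Fos the capitals are TGACGT, the core of the element bound by CREB, and the TATA box TATAAA. Searched on both strands in 32851 promoters of 300 bases, GAANNTTC was held by 7.86%, its tail-to-tail form TTCNNGAA by 8.52%, CCAAT by 37.4%, TGACGT by 7.51% and TATAAA by 13.6%. The full element TGACGTCA was held by 1.79%, the AP-1 pattern TGANTCA by 7.81% and the CArG box, the SRF site, by 1.63%. None of the 9 members searched, which leave out Egr1, matched any of these 3 in the 300 bases. Of the 9, 3 held GAANNTTC (Hspa1a, Hspa1b and Jun), 0 held TTCNNGAA, 2 held TGACGT (Fos and Atf3), 2 held TATAAA (Fos and Junb) and 6 held CCAAT. The 300 bases run past the start site: TATAAA in Junb and CCAAT in Atf3 begin at positions 1 and 6 after it, so they are not upstream boxes. The promoters searched for Atf3 (chr1:191183284-191183583) and Nr4a1 (chr15:101266596-101266895) lie inside the spans of these genes given below. Dnajb1, the third heat shock gene, held neither heat shock pattern in either of its 2 promoters. TGACGTCA contains TGACGT, a CArG box can contain TATAAA, and GAANNTTC and TTCNNGAA can overlap.

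Dnajb1, at chr8:83608193-83612653, fell less far than the HSP70 genes. It ran from 26.6 to 77.3 CPM in ntCZC (median 47.4) and from 58.3 to 179.5 CPM in tissue (median 95.1). Of the 10 ntCZC libraries, 8 lay below the lowest tissue library, so the groups overlapped slightly. The log2 change was -1.08 ± 0.19 (SE), with an edgeR adjusted p of 4.59e-05.

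**Figure D1:**
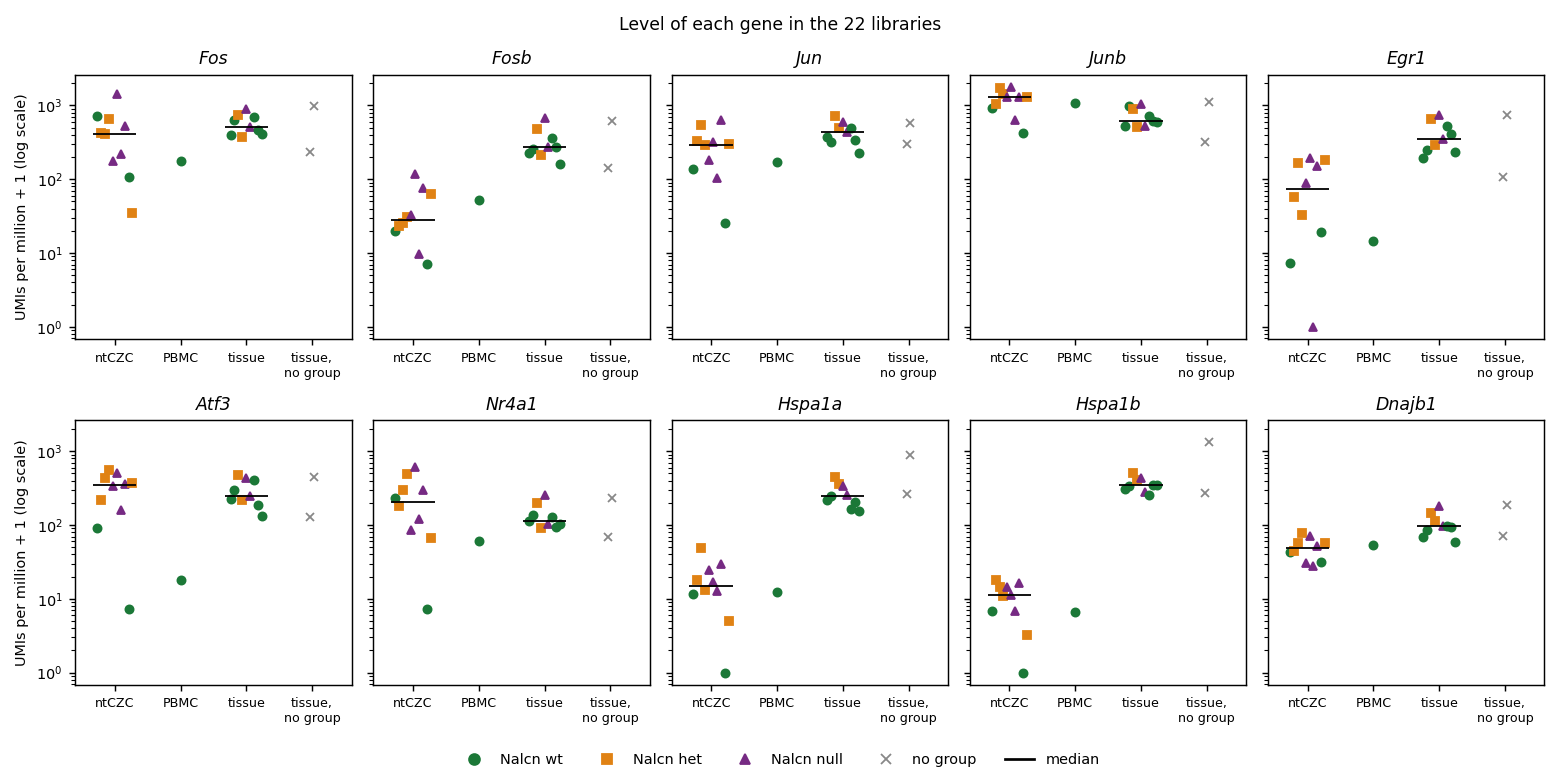
Level of each of the 10 genes in the 22 libraries. The vertical axis is CPM plus 1 on a log scale, each point is a library, its shape and color give the Nalcn genotype, and lines are medians of the 10 ntCZC and the 9 tissue libraries with a group. Hspa1a and Hspa1b in ntCZC, at most 48.5 and 16.8 CPM, sit below every tissue library, and Fos, Jun, Atf3 and Nr4a1 overlap.

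Among the AP-1 subunits, Fosb was lower in ntCZC and Junb was higher. Fosb (chr7:19302696-19310051) ran from 6.19 to 116.4 CPM in ntCZC, with a median of 26.9, and from 162.1 to 670.8 CPM in tissue, with a median of 271.9. Its log2 change was -2.93 ± 0.39 (SE), with an edgeR adjusted p of 1.54e-06, and the groups did not overlap. Junb (chr8:84974484-84978718) ran from 420.9 to 1804 CPM in ntCZC (median 1307) and from 504.9 to 1037 CPM in tissue (median 607.1). Its log2 change was 0.73 ± 0.20 (SE), with an edgeR adjusted p of 0.00326, and all 9 tissue libraries lay within the ntCZC range. The call for Junb was lost in male libraries alone (adjusted p 0.0927) and with the replicate number as a block (0.54, adjusted p 0.0784), when 6 of the 10 genes and 52.6% of all genes tested were called. That block kept only the 6 pairs of ntCZC and tissue libraries with the same genotype and replicate number, without sex as a covariate.

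Fos (chr12:85473890-85477273), the partner of the Jun proteins in AP-1, spanned 33.6 to 1448 CPM in ntCZC (median 412.8) and 371.1 to 889.9 CPM in tissue (median 502.6). The tissue range thus lay wholly inside the ntCZC range, and the log2 change of -0.39 ± 0.36 (SE) was not called, with an edgeR adjusted p of 0.356. Jun (chr4:95049034-95052222) ran from 24.8 to 630.7 CPM in ntCZC (median 294.2) and from 228.1 to 711.6 CPM in tissue (median 433.1). The log2 change of Jun, -0.70 ± 0.32 (SE), missed the threshold with an edgeR adjusted p of 0.0634. It passed, lower in ntCZC, with RLE scaling (0.0153), by DESeq2 (0.00762), with sex and genotype as covariates (0.00454), in male libraries alone (0.0155), with the replicate number as a block (0.000898) and when barcodes under 200 genes or over 20% mitochondrial were dropped (0.0121). It also passed without any one of ntCZC het replicate 2 (0.0397), ntCZC null replicate 4 (0.00626), tissue wt replicate 4 (0.0385) and tissue wt replicate 5 (0.0367).

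Egr1 (chr18:34859823-34864984) ran from 0 to 192.4 CPM in ntCZC (median 72.1) and from 192 to 746.2 CPM in tissue (median 350.2). The ranges touched through 1 library of each kind, ntCZC null replicate 2 and tissue wt replicate 1. The log2 change was -2.21 ± 0.53 (SE), with an edgeR adjusted p of 0.00116. Atf3 (chr1:191170296-191218039) had a median of 352.1 CPM in ntCZC, with a range of 6.19 to 565.3, and of 248.7 CPM in tissue, with a range of 131.4 to 476.4. Its log2 change of 0.06 ± 0.36 (SE) was not called, with an edgeR adjusted p of 0.892, and the sign turned with the scaling (-0.16 with RLE scaling).

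Nr4a1 (chr15:101254269-101274795) ran from 6.19 to 602.6 CPM in ntCZC (median 204.5) and from 89.4 to 255.4 CPM in tissue (median 112.8). The ntCZC libraries lay on both sides of the tissue range, and the log2 change of 0.73 ± 0.35 (SE) missed the threshold, with an edgeR adjusted p of 0.0690. It passed without ntCZC wt replicate 3 (0.0178) and without ntCZC het replicate 3 (0.0288). It also passed, at 0.0292, without ntCZC wt replicate 3 and tissue null replicate 3, which stand apart. That alternative was not planned, and it called 7 of the 10 genes and 64.2% of all genes tested. Under RLE scaling the median log2 change of all genes was -0.30 in place of -0.08, and calls split into 2202 higher and 4736 lower in place of 3042 and 3849.

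**Figure D2:**
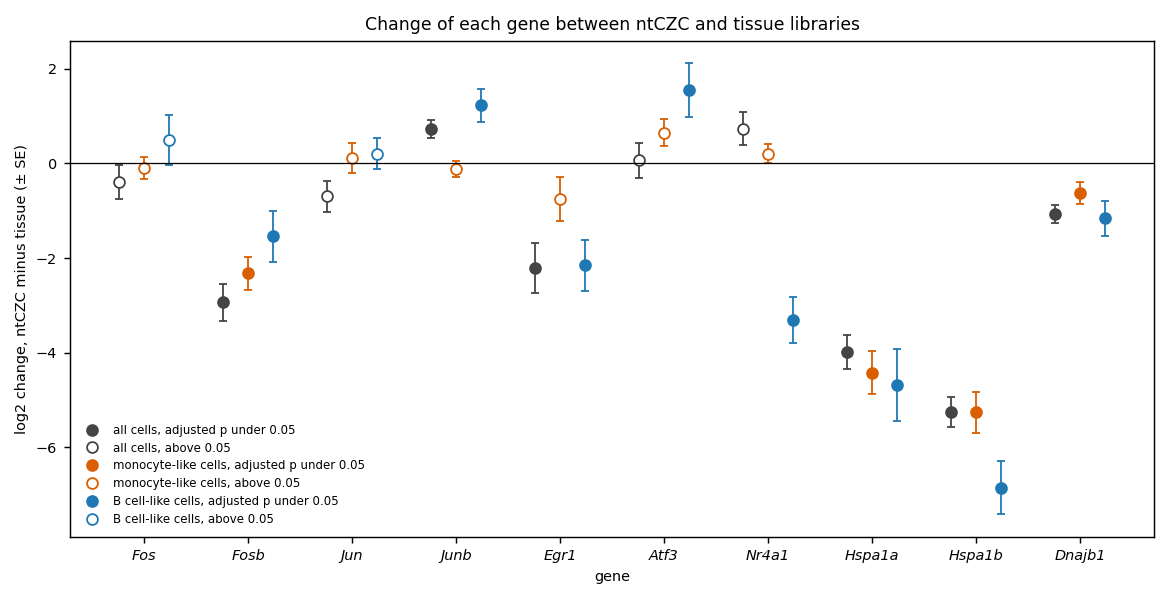
Log2 change of each gene, ntCZC minus tissue, in whole libraries, in monocyte-like cells and in B cell-like cells. Points are edgeR estimates with their SE, filled where the adjusted p was under 0.05. Hspa1a and Hspa1b lie at -3.98 or below in each comparison, and Nr4a1 lies at -3.32 in B cell-like cells beside 0.21 in monocyte-like cells.

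Whole libraries of sorted blood and of organs hold different cells, so the comparison was repeated within the 2 classes held by most libraries of both kinds, monocyte-like and B cell-like cells. Classes were clusters of cells named from marker lists, with the members and the pathway genes below left out of the genes used to cluster. Monocyte-like cells, 1285 in 7 ntCZC libraries and 3591 in 9 tissue libraries, carried the 10 monocyte markers at a summed 3023 to 3570 CPM in ntCZC and 1867 to 2448 CPM in tissue. B cell-like cells, 245 in 6 ntCZC libraries and 7268 in 8 tissue libraries, carried the 7 B cell markers at 6755 to 10670 CPM and 3094 to 5934 CPM. No ntCZC wt library had 20 B cell-like cells, so that comparison held het and null ntCZC only. Levels in a class are CPM of the UMIs of that class in a library.

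In monocyte-like cells 4 of the 10 genes were called, all lower in ntCZC, when 46.2% of 6531 genes tested were called and 22.6% were lower. The 4 were the 3 heat shock genes and Fosb, and for Fosb, Hspa1a and Hspa1b every ntCZC library lay below every tissue library, as did 5.25% of genes tested. Hspa1b was at 4.64 to 36.6 CPM in ntCZC (median 13.7) and at 169.7 to 1065 CPM in tissue (median 599.8), a log2 change of -5.26 ± 0.43 (SE) with an edgeR adjusted p of 8.64e-09. Hspa1a was at 4.64 to 47.7 CPM (median 17.6) and at 73.8 to 1065 CPM (median 390.9), a log2 change of -4.42 ± 0.45 (SE) with an edgeR adjusted p of 1.55e-07.

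In the same cells Fosb was at 4.64 to 74.2 CPM in ntCZC (median 11.7) and at 86.2 to 249.6 CPM in tissue (median 129.9), a log2 change of -2.32 ± 0.35 (SE) with an edgeR adjusted p of 1.75e-05. Dnajb1 was near the threshold, with a log2 change of -0.62 ± 0.24 (SE) and an edgeR adjusted p of 0.0376, at 32.5 to 83.2 CPM in ntCZC and 22.1 to 165.9 CPM in tissue. Its call was lost without any one of 7 libraries (ntCZC wt replicate 1, ntCZC het replicates 1 and 2, ntCZC null replicate 1, tissue het replicates 1 and 2, and tissue null replicate 2), with adjusted p from 0.0502 to 0.0946, and with at least 50 cells of the class required (-0.58, adjusted p 0.0933). The remaining 6 genes were not called: Fos, Jun, Junb, Egr1, Atf3 and Nr4a1 had log2 changes of -0.10, 0.12, -0.12, -0.75, 0.65 and 0.21.

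Fos in monocyte-like cells was at 380.7 to 1674 CPM in ntCZC (median 592.7) and 509.7 to 900.6 CPM in tissue (median 690), and Nr4a1, a factor known to be needed for the patrolling subset of monocytes, was at 294.9 to 747.9 CPM (median 601) and 228.7 to 620.3 CPM (median 360). Both genes were abundant on either side. Atf3 had an adjusted p of 0.0700 and passed without ntCZC wt replicate 1 (0.00179) or ntCZC het replicate 1 (0.0290), and, with no filter on low counts, at 0.00584. Egr1, at 0.192, passed without ntCZC null replicate 2 (0.00391), with no filter on low counts (0.0364), with no doublets removed (0.0403) and with the replicate block (0.0253).

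Monocyte-like cells came from 2 clusters in different shares. The cluster led by Cd300e, Eno3, Adgre4 and Treml4, genes of patrolling monocytes, held 991 of the 1285 ntCZC cells and 1138 of the 3591 tissue cells compared, and the cluster led by F13a1 and Vcan, with Ly6c2 among its leading genes as in classical monocytes, held 294 and 2453. Within the Cd300e cluster alone, an alternative chosen after seeing the data, 5 of the 10 genes were called, when 38.3% of 3658 genes tested were called, Egr1 among them at a log2 change of -1.38 with an adjusted p of 0.0181. Nr4a1 there had a log2 change of -0.22 with an adjusted p of 0.346.

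In B cell-like cells 8 of the 10 genes were called, 6 lower and 2 higher in ntCZC, when 34.7% of 6072 genes tested were called, 18.7% lower and 16% higher. Hspa1a, Hspa1b and Nr4a1 did not overlap between the kinds, with every ntCZC library below every tissue library, as in 7.36% of genes tested. Hspa1b was at 0 to 17.3 CPM in ntCZC (median 2.63) and 203.1 to 1127 CPM in tissue (median 387.5), and Hspa1a at 0 to 86.5 CPM (median 0) and 93.2 to 855.8 CPM (median 246.1). These ntCZC levels rested on 4 UMIs of Hspa1b and 11 of Hspa1a in 245 cells, so both genes passed the filter on low counts through the tissue libraries, where they were high. Folds were taken from pooled UMIs with exact intervals that cover counting error only. Hspa1b was 162.5 times as high in tissue (95% interval 63.4 to 596.6) and Hspa1a 35.0 times (19.5 to 70.1), and the edgeR adjusted p were 2.37e-07 and 0.000229. These pooled folds leaned on ntCZC het replicate 3, which held 1037289 of the 1659882 ntCZC UMIs. Without it they were 81.3 for Hspa1b (27.8 to 394.2, from 3 UMIs) and 13.1 for Hspa1a (7.32 to 26.3), and the ratios of mean CPM over libraries were 107.1 and 16.4.

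Nr4a1, which B cells raise when their antigen receptor is engaged, was at 6.75 to 73.4 CPM in ntCZC B cell-like cells (median 24.1) and at 109.9 to 630 CPM in tissue (median 359.1). Its log2 change was -3.32 ± 0.49 (SE), with an edgeR adjusted p of 0.000104. Egr1, also raised by that receptor, was at 0 to 99.6 CPM (median 5.30) and 83 to 277 CPM (median 177.9), with a log2 change of -2.16 ± 0.54 (SE) and an edgeR adjusted p of 0.00499. Fosb and Dnajb1 were lower by -1.54 ± 0.53 and -1.16 ± 0.36 on the log2 scale (SE), with edgeR adjusted p of 0.0310 and 0.0194.

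The 2 genes higher in ntCZC B cell-like cells were Junb, at 274.8 to 3323 CPM (median 2174) beside 375.3 to 1419 CPM in tissue (median 760.3), and Atf3, at 0 to 343.1 CPM (median 61.1) beside 24.7 to 110.5 CPM (median 55.1). Their log2 changes were 1.23 ± 0.34 and 1.55 ± 0.57 (SE), with edgeR adjusted p of 0.0106 and 0.0412. The Atf3 difference came from some ntCZC libraries: 3 of 6 were below the lowest tissue library, and het replicates 1 and 3 and null replicate 4 were at 343.1, 288.3 and 104.8 CPM. Fos and Jun were not called, with log2 changes of 0.49 and 0.21.

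With so few ntCZC cells, single libraries decided several of these calls. The count fell to 5 without ntCZC het replicate 1 (1665 of 6417 genes tested were called) or without ntCZC het replicate 3 (1645 of 5996). With all libraries 2106 of 6072 genes were called. Atf3 was lost without any one of 7 libraries (adjusted p 0.0511 to 0.3849: tissue wt replicates 1 and 4, tissue het replicates 1 and 2, tissue null replicate 3, ntCZC het replicates 1 and 3). Fosb was lost without any one of ntCZC het replicates 1, 2, 3 and 4 and null replicate 2 (0.0508 to 0.0889), Dnajb1 without ntCZC het replicate 1 (0.0696) or 3 (0.0548), and Junb without ntCZC null replicate 4 (0.0562). The replicate block kept only het replicates 1 and 2 and null replicate 2 of each kind, and called 13% of genes tested and 6 members. With it Junb (0.68, adjusted p 0.168) and Atf3 (0.54, adjusted p 0.696) were lost, and by DESeq2 Atf3 was lost (adjusted p 0.320). Het replicate 3 stood apart among the ntCZC B cell-like cells, with 13300 UMIs per cell in 78 cells, Fos at 2.89 CPM and Junb at 274.8 CPM. Hspa1a, Hspa1b, Nr4a1 and Egr1 kept their calls in each of the 14 fits that left out a library. With at least 50 cells required, which left 2 ntCZC libraries, Nr4a1 (-2.49, adjusted p 0.0503), Egr1 (-1.40, adjusted p 0.210) and Junb (1.61, adjusted p 0.124) lost theirs, as did Fosb and Dnajb1.

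**Figure D3:**
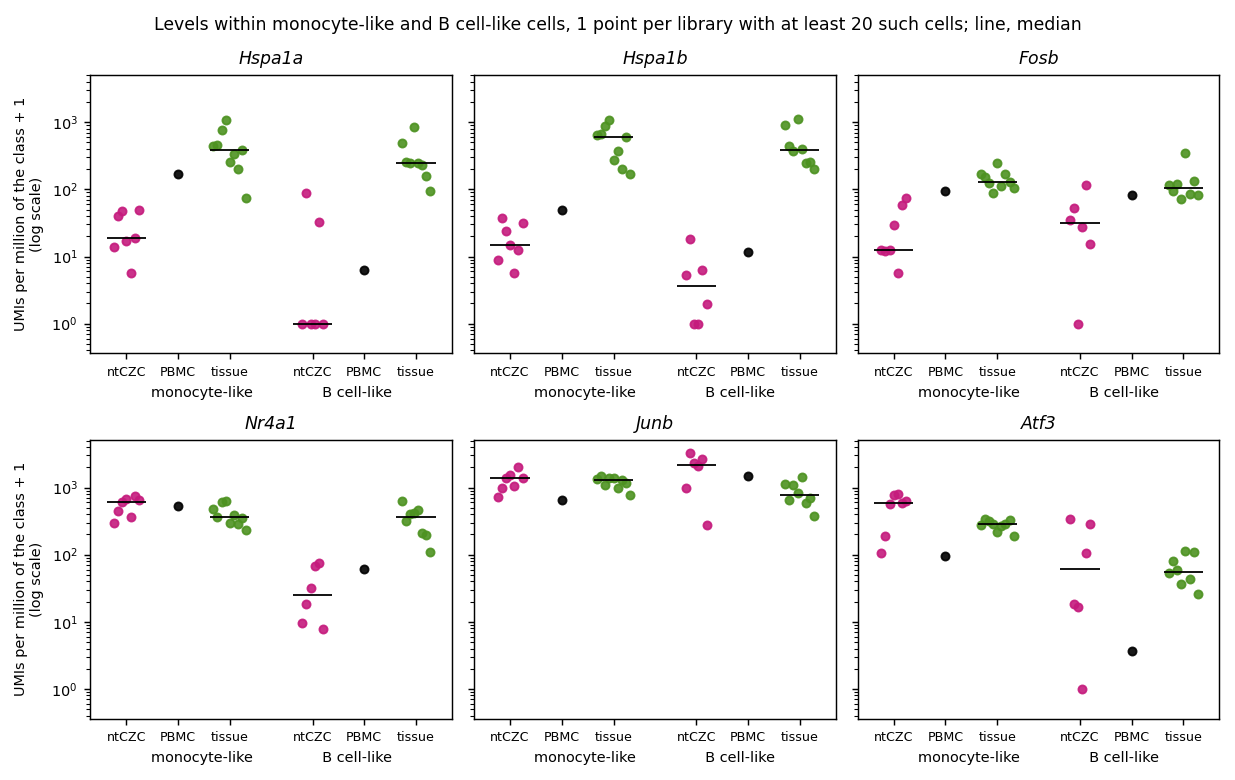
Levels of 6 of the genes within monocyte-like and B cell-like cells. The vertical axis is CPM of the class plus 1 on a log scale, each point is a library with at least 20 such cells, and lines are medians. Nr4a1 in B cell-like cells is at most 73.4 CPM in ntCZC and at least 109.9 CPM in tissue, while in monocyte-like cells the kinds overlap.

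Whether the change differed between the classes was tested by an interaction within the 5 ntCZC and 8 tissue libraries that held at least 20 cells of both. Of the 10 genes, 2 were called, when 5.05% of 7916 genes tested were called. The change of Nr4a1 was 3.47 ± 0.43 (SE) higher in monocyte-like than in B cell-like cells on the log2 scale, with an edgeR adjusted p of 2.12e-05, and that of Junb was -1.29 ± 0.26 (SE), with an edgeR adjusted p of 0.00434. For Hspa1a and Hspa1b the differences of the effects were 0.24 ± 0.72 and 2.02 ± 0.93 (SE), with adjusted p of 0.916 and 0.221, so unequal change of the HSP70 genes in the 2 classes was not detected at this depth. Without ntCZC null replicate 2, Fos was also called, at -1.17 with an adjusted p of 0.0373, and with no filter on low counts Egr1 was, at 1.28 with an adjusted p of 0.0204. With at least 50 cells of both classes, 1 ntCZC library was left and neither gene was called, with Nr4a1 at 2.67 (adjusted p 0.228) and Junb at -1.66 (adjusted p 0.247).

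RNA of other cells moved with these differences. In tissue, monocyte-like and B cell-like cells carried the 8 kidney proximal tubule markers at 159.7 to 967.1 CPM and 243.9 to 1224 CPM, against 0 in each ntCZC library of monocyte-like cells and 0 to 17.2 CPM in B cell-like cells. The 9 gastric epithelial markers in monocyte-like cells were at 115.7 to 1010 CPM in tissue, and all 9 were at 0 in ntCZC. For scale, Hspa1b in tissue B cell-like cells was at 0.592 to 2.98 times the level of its own whole library, above it in 4 of 8 libraries, and in tissue erythroid-like cells at 0.423 to 1.12 times. Nr4a1 in tissue B cell-like cells was above its whole library in 8 of 8 libraries, by 1.19 to 5.58 times, whereas Fosb (0.244 to 0.521 times) and Egr1 (0.237 to 0.857 times) were below it in 8 of 8. In tissue monocyte-like cells Fosb was at 0.26 to 0.751 times the level of its own library, below it in 9 of 9. The part of RNA from other cells in the class differences was not tested.

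The PBMC library served as blood that had been neither digested nor sorted for ZsGreen, and with 1 library it allowed no test. Hspa1b was at 5.62 CPM there (95% Poisson interval 2.43 to 11.1, counting error only), Hspa1a at 11.2 CPM (6.43 to 18.3) and Dnajb1 at 53.4 CPM (42.1 to 66.9), each within the ntCZC range and below all 9 tissue libraries. Fosb, at 52.0 CPM (40.9 to 65.3), and Egr1, at 13.4 CPM (8.04 to 20.9), were also below all 9. Junb, at 1087 CPM (1034 to 1143), was above all 9. Fos, Jun, Atf3 and Nr4a1, at 175.1, 170.2, 16.9 and 59.1 CPM, were below every tissue library too. Thus 9 of the 10 genes lay below all 9 tissue libraries, as did 31% of the 10681 genes. Atf3 and Nr4a1 were above only 1 of the 10 ntCZC libraries.

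Within the PBMC library, 259 T cell-like cells had no UMI of Hspa1a or Hspa1b among 545784, with an upper 95% limit of 6.76 CPM for each, beside 161.3 to 682.7 CPM and 297.3 to 1007 CPM in T cell-like cells of 8 tissue libraries. The 85 NK cell-like cells likewise had none (upper limit 18.8 CPM). Their cluster met 3 of the 7 NK cell markers, and with no doublets removed Cd8a was among its leading genes. The class may therefore also hold CD8 T cells, in shares that can differ between kinds of library. In 246 B cell-like cells Nr4a1 was at 60.7 CPM (38.5 to 91.0), inside the ntCZC range and below the lowest tissue library. The 28 monocyte-like cells held Hspa1a at 166.3 CPM (90.9 to 279.1) from 14 UMIs, above every ntCZC library and inside the tissue range of 73.8 to 1065 CPM. Hspa1b there, at 47.5 CPM (12.95 to 121.7) from 4 UMIs, was also above every ntCZC library (highest 36.6) and below every tissue library (lowest 169.7), and Nr4a1 was at 534.7 CPM (390 to 715.4). Fos was at 2845 CPM (2294 to 3489) in 36 neutrophil-like cells, where no UMI of either HSP70 gene was seen among 32337 (upper limit 114.1 CPM).

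Other ntCZC classes were held by few libraries. In 97 NK cell-like cells of 2 libraries Hspa1b was at 0 and Hspa1a at 0 and 2.58 CPM, beside 328.6 to 1610 CPM and 163 to 990.3 CPM in tissue. In 126 macrophage-like cells of 2 libraries Hspa1b was at 5.44 and 36.2 CPM, Egr1 at 196.8 and 554.5 CPM and Junb at 2763 and 3532 CPM, beside 178.4 to 816.3, 112.1 to 375 and 713.1 to 1593 CPM in tissue. The macrophage-like cells of the kinds came mostly from different clusters. Over all libraries, the cluster led by Prg4 and Alox15 held 162 ntCZC and 52 tissue cells, and that led by Ear1 and Krt79 held 1 and 8386. The macrophage-like values therefore did not compare like with like. The 106 neutrophil-like cells of 1 library had Fos at 2474 CPM and no UMI of Hspa1b. In each of these 3 classes Hspa1b and Fosb lay below every tissue library, as did 14.9% of the 10681 genes tested in whole libraries for NK cell-like, 25.5% for macrophage-like and 10.2% for neutrophil-like cells. Fos did so in 2 of them, at 0 and 103.3 CPM in NK cell-like cells (120.8 to 220.6 in tissue) and at 88.8 and 194.8 CPM in macrophage-like cells (416.1 to 1021), but in neutrophil-like cells it was inside the tissue range of 824.7 to 2544 CPM.

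Within tissue the 10 genes were described over 23 classes, as means over libraries with at least 20 cells, with no test because the same cells define the classes. Most immediate early genes were highest in stromal or kidney epithelial classes. Fos was highest in mesothelial-like cells (3547 CPM), then fibroblast-like (2797 CPM) and smooth muscle cell or pericyte-like cells (2326 CPM). Fosb (1995 CPM), Jun (1964 CPM) and Egr1 (3520 CPM) were highest in fibroblast-like cells, and Atf3 (1216 CPM) in kidney loop of Henle or distal tubule-like cells. Junb had its highest level in neutrophil-like cells (2855 CPM) and Nr4a1 in basophil or mast cell-like cells (725.2 CPM).

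Hspa1a was highest in smooth muscle cell or pericyte-like cells (952.2 CPM), and Hspa1b and Dnajb1 in basophil or mast cell-like cells (1330 and 626.5 CPM, 4 libraries). Hepatocyte-like cells, held by 3 libraries, were lowest for 8 of the genes, and gastric epithelial-like cells, also of 3 libraries, for Junb (121.1 CPM) and Hspa1a (30.2 CPM). The ratio of the first class to the lowest ran from 21.7 for Hspa1b to 234.2 for Nr4a1. In the order of levels, 19 to 22 of the 22 pairs of neighboring classes lay within 1 SD of each other.

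**Figure D4:**
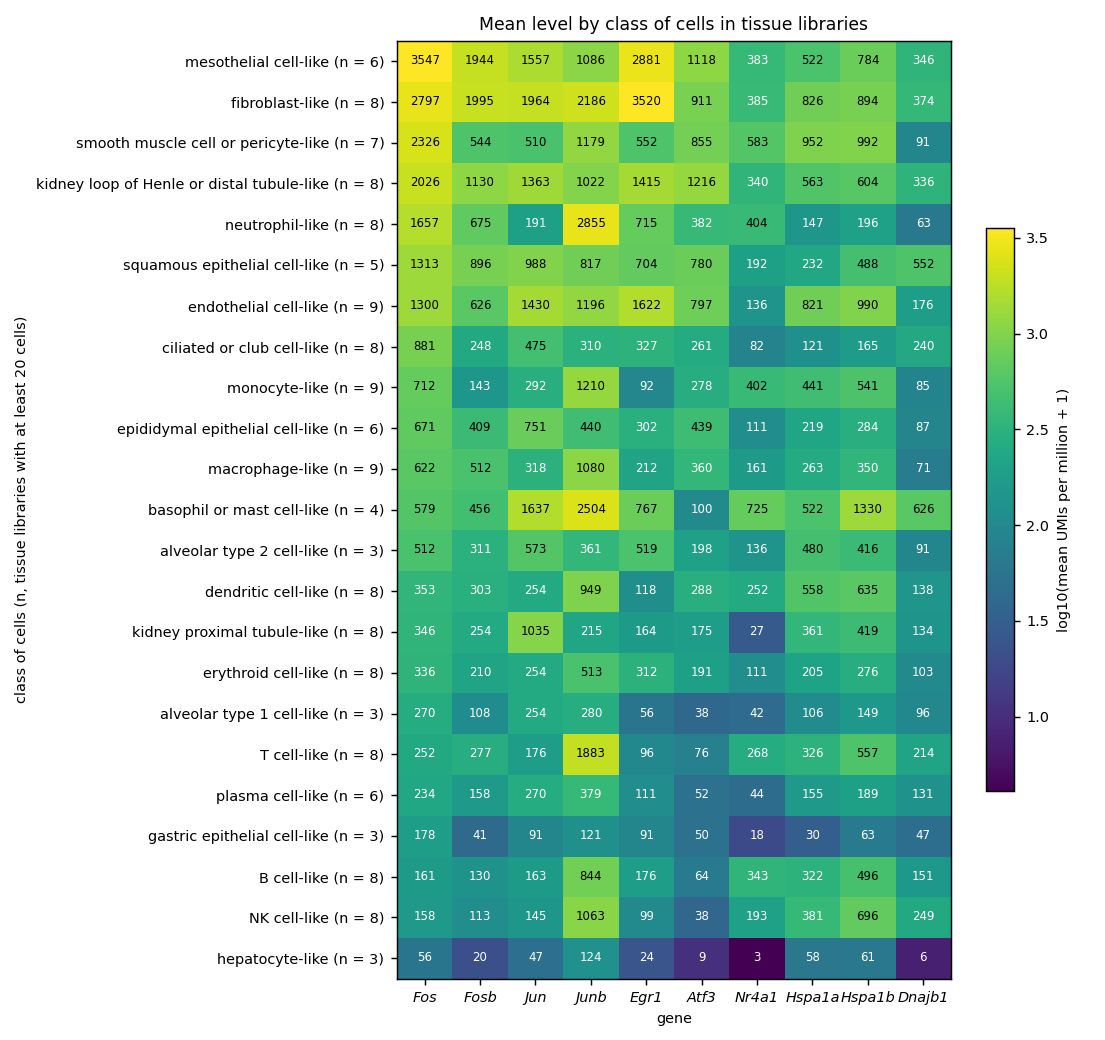
Mean level of each gene in 23 classes of cells of the tissue libraries, ordered by Fos. Rows are classes with the number of libraries, columns are genes, numbers are mean CPM and color is their log10 after adding 1. Fos, Fosb, Egr1 and Atf3 each have mesothelial-like and fibroblast-like cells among their highest classes, and their other high classes differ. Hspa1a is highest in smooth muscle cell or pericyte-like cells (952.2 CPM) and Hspa1b in basophil or mast cell-like cells (1330 CPM).

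Over the 23 classes, the genes whose pattern was most like that of Fos, among 8808 genes, were Atf3 (Pearson r = 0.94), Fosb (0.91), Egr1 (0.88), Cebpd (0.86) and Samd4b (0.81). Junb ranked 464 and Hspa1a 421. The nearest to Hspa1a were Hspa1b (0.95), Phf20 (0.84), Rassf1 (0.81), Tacc1 (0.78) and Dennd5a (0.77), and Fos ranked 295. These are descriptions over classes that share libraries, and they say only which patterns were alike.

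Across libraries, Fos and Hspa1a did not rise and fall together detectably. On log2(CPM + 1) the correlation was r = 0.34 over 9 tissue libraries (exact permutation p = 0.358, rho = 0.25, p = 0.521) and r = 0.54 over 10 ntCZC libraries (permutation p = 0.105, rho = 0.28, p = 0.426). Adjusted over these 2 relations the p-values for r were 0.358 and 0.21, and r was -0.32 and -0.21 without the 2 libraries farthest from the median of Fos.

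Nalcn genotype was compared within ntCZC and within tissue, and none of the 10 genes was called in any of the 5 comparisons. Few genes were called at all: 0% for ntCZC null against wt, 0.107% for het against wt and 0% for null against het, of 9379 genes tested, and 0.0112% for tissue null against wt and 0% for het against wt, of 17863. At an unadjusted p under 0.05 edgeR gave 360, 741, 686, 1621 and 1367 genes. DESeq2, which tested 16317 genes in ntCZC and 25756 in tissue, called 0.0981%, 0.723%, 0.123%, 1.31% and 0.28% of them. The edgeR counts of genes called moved with single libraries: without ntCZC wt replicate 1 they were 64 for null against wt and 96 for het against wt (0 and 10 with all libraries), and without ntCZC het replicate 4 they were 48 for het against wt and 25 for null against het. In tissue, the count for null against wt, 2 with all libraries, ran from 0 to 16 with each library left out and was highest without wt replicate 1. None of the 10 genes was called in any edgeR fit that left out a library. The ntCZC wt group held 2 libraries, each from a male, with haemoglobin at 73.5% of UMIs in wt replicate 3. Males made up 3 of the 4 het and 1 of the 4 null ntCZC libraries. In tissue they made up 3 of the 5 wt, 2 of the 2 het and 1 of the 2 null libraries. Genotype and sex were thus partly confounded in both kinds.

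Of the members, DESeq2 called Atf3 and Fos in ntCZC and Hspa1a in tissue. Atf3 in ntCZC was at 90.8 and 6.19 CPM in the 2 wt libraries, at 216.4, 436.2, 366.5 and 565.3 CPM in het and at 341, 504.1, 159.6 and 363.3 CPM in null. Both wt libraries thus lay below all 8 others, as they did for 3.33% of genes tested. The log2 changes were 2.85 ± 0.62 (SE) for null and 2.70 ± 0.57 for het against wt, with edgeR adjusted p of 0.983 and 0.223, and both were called by DESeq2, with adjusted p of 0.00684 and 0.000503. With each library left out they ran from 2.54 to 4.46 and from 2.40 to 4.31, lowest without ntCZC wt replicate 3 and highest without ntCZC wt replicate 1. In tissue, Atf3 was at 226.4, 296.7, 412.4, 186.9 and 131.4 CPM in wt libraries, at 476.4 and 215 CPM in het ones and at 433.6 and 248.7 CPM in null ones, with log2 changes of 0.05 and 0.33 that were not called by either tool.

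Fos in ntCZC was at 174.1, 1448, 218.7 and 529.9 CPM in null and at 419.1, 406.6, 33.6 and 655.3 CPM in het. The groups overlapped, and the log2 change of 2.48 ± 0.56 (SE) for null against het came from a fit with sex as covariate in which het held 1 female and null 1 male library, with an edgeR adjusted p of 0.337 (DESeq2 0.000889). It was 1.57 without ntCZC het replicate 3 and 3.43 without ntCZC null replicate 2. Hspa1a in tissue was at 441 and 363 CPM in het and at 218.1, 246.9, 165.2, 201.6 and 154.9 CPM in wt. The null libraries were at 336 and 256.1 CPM, so the het and the null libraries all lay above the wt libraries, as for 4.8% of genes tested. The log2 change was 0.84 ± 0.22 (SE) for het against wt, with an edgeR adjusted p of 0.644 (DESeq2 0.0319), and 0.38 ± 0.21 (SE) for null against wt, with an edgeR adjusted p of 0.632. In ntCZC, Hspa1a was at 48.5 CPM or less in every genotype.

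Other genes of the same pathways were compared between ntCZC and tissue. Their lists were taken as wholes but chosen with earlier results of these data known. The EGR and NR4A list held 5 more of these factors, Egr2, Egr3, Egr4, Nr4a2 and Nr4a3, and Nab2, a corepressor that binds EGR proteins. All 5 genes of the list that were tested were lower in ntCZC, beside 36% of all genes tested, and their median was -2.68 on the log2 scale. Nr4a3, the close relative of Nr4a1, changed by -4.65 ± 0.43 (SE), from 91.4 ± 39.1 CPM (SD, n = 9) in tissue to 3.96 ± 3.26 CPM (SD, n = 10) in ntCZC, and Egr3 and Egr2 changed by -2.87 and -2.68. Nab2 changed by -0.86. Egr4 was not tested: it had no UMI in ntCZC, and in tissue was at least 1.88 times as high, against a floor of 3 UMIs over the ntCZC group. Nr4a3 differed likewise within monocyte-like cells, where Nr4a1 was not called: its log2 change there was -5.33 ± 0.38 (SE), with an edgeR adjusted p of 1.12e-09.

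Of the 8 other AP-1 and ATF/CREB factors, 5 were lower and 2 higher, beside 36% lower and 28.5% higher over all genes tested. Their median log2 change was -1.05. Fosl1, a Fos relative, changed by -4.87 ± 0.44 (SE), from 8.33 ± 3.94 CPM (SD, n = 9) in tissue to 0.199 ± 0.376 CPM (SD, n = 10) in ntCZC, and Crem, whose short forms repress CREB targets, and Maff changed by -3.39 and -1.88. The 2 that were higher were Jund and Batf. In monocyte-like cells 5 of 7 tested were lower and 0 higher (22.6% and 23.6% of all genes tested), and in B cell-like cells 2 were lower and 1 higher of 7 (18.7% and 16%).

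The 23 other immediate early genes went both ways, 8 higher and 5 lower, with a median of 0.05, beside 28.5% higher and 36% lower over all genes. Klf2, a factor of quiescent and recirculating lymphocytes, changed by 2.20 ± 0.20 (SE), from 233.6 ± 44.8 CPM (SD, n = 9) in tissue to 1128 ± 440 CPM (SD, n = 10) in ntCZC, and Dusp2, a phosphatase of MAP kinases, changed by 1.73. Cyr61, a matricellular protein gene of stromal cells, had no UMI in any ntCZC library and was at least 309 times as high in tissue, against the same floor. In monocyte-like cells 4 were higher and 9 lower of 21 tested (all genes 23.6% and 22.6%), and in B cell-like cells 5 and 4 of 22 (16% and 18.7%).

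The list of other heat shock response genes held 18, among them cytosolic chaperones and their cofactors, the mitochondrial chaperonins Hspd1 and Hspe1 and the heat shock factors Hsf1 and Hsf2. Of these 7 were lower and 2 higher in ntCZC, with a median of -0.16, beside 36% lower and 28.5% higher over all genes, so the share lower was about that of all genes. Hspd1 and Hspe1 were among the 7, and Hsf1 and Hsf2 were not called. The 3 that differed most were Hspb1, a small heat shock protein (log2 change -4.26), Hsph1, a nucleotide exchange factor of HSP70 (-1.92), and Dnajb4, an HSP40 (-1.32). Hsph1 was also lower within monocyte-like cells (-1.16, edgeR adjusted p = 0.00182) and B cell-like cells (-2.41, edgeR adjusted p = 0.000331). In monocyte-like cells 6 lower and 2 higher of 16 were called (all genes 22.6% and 23.6%), and in B cell-like cells 6 lower and 0 higher of 16 (18.7% and 16%). Endoplasmic reticulum chaperones, a separate arm that responds to unfolded proteins in the secretory pathway, were called higher for 2 and lower for 4 of 10 (all genes 28.5% and 36%), with a median of -0.37. The 3 named were Sdf2l1 at 1.23, Pdia3 at 0.52 and Hsp90b1 at -0.52.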

How the data were processed

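Single-cell RNA libraries (10x Chromium 3' chemistry) of 22 mouse samples were analysed. The authors aligned reads to mm10 and deposited matrices of raw UMI counts per gene and barcode, with no normalization. Matrix headers name Cell Ranger 3.0.2, and the submitters' processing notes name Cell Ranger 2.1.1 and Seurat. Groups came from the labels. A pair of tissue libraries whose title and strain entries named different genotypes stayed without a group, and hashtag counts were not used here.

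Counts were summed over all barcodes of a library, or over cells of a class, and tested with edgeR 4.0.16 (quasi-likelihood, TMM scaling, filterByExpr, sex as covariate, Benjamini-Hochberg adjustment over all genes tested, threshold 0.05). DESeq2 1.42.0 was an alternative. For classes, barcodes under 200 genes or over 25% mitochondrial were dropped, 95843 were kept, 15088 doublets were removed (tissue libraries only), and 80755 cells were clustered with scanpy 1.11.5 (2000 variable genes, 50 components, 15 neighbours, Leiden resolution 1), giving 40 clusters. Clusters were named, with "-like" added, by at least 3 markers of 1 of 25 lists. After the clusters had been seen, the uterine list was left out of naming, and a name was refused where at least 3 of the 10 leading genes pointed to another class. Libraries entered a class comparison with at least 20 cells of it. The scripts were tested on simulated data. Poisson intervals are exact and cover counting error only.

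The 10 genes, the other gene lists and the tests were chosen with earlier results of these data known. From each other list, up to 3 called genes with the largest change between ntCZC and tissue were named. Some further list genes, such as Nab2, Jund and Batf, were named outside this rule. For Fos and Hspa1a the 5 genes most alike over tissue classes were named (log2(CPM + 10), at least 50 CPM in some class). Alternatives were RLE scaling, DESeq2, no filter on low counts, leaving out haemoglobin and mitochondrial genes, no sex covariate, sex with genotype, males only, stricter barcodes, at least 50 cells, Leiden resolution 2, no doublet removal, the replicate block and leaving out each library. The Cd300e cluster alone, and leaving out ntCZC wt replicate 3 with tissue null replicate 3, were added and not planned. The lowest chi-square between replicates of a group was 4.11 per degree of freedom, so no library was counted as a repeat of another.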

Additional observations from a re-analysis of the deposited data

Results flagged for a closer look

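Samples far from the others of their set were looked for in 90 sets of 4 to 10 libraries, and 7 stood out, where chance would give about 1 set in 20. ntCZC null replicate 2 was highest for Fos, at 1448 CPM in the whole library (next, 725.3) and at 1674 CPM in its monocyte-like cells (next, 858.5). Tissue null replicate 2 was highest for Fosb, at 249.6 CPM in monocyte-like cells (next, 167.4) and at 342.7 CPM in B cell-like cells (next, 130.3). ntCZC het replicate 2 was highest for Jun among het libraries, at 535.8 CPM (next, 324.5), and in its 22 B cell-like cells Hspa1a was at 86.5 CPM (next, 31.4) and Hspa1b at 17.3 CPM (next, 5.24).

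The change between ntCZC and tissue differed between monocyte-like and B cell-like cells for 2 genes by the interaction test, Nr4a1 at 3.47 (log2) and Junb at -1.29.

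The female tissue library without a group was above all 9 tissue libraries with a group for 6 genes, and these values entered no comparison. The share of all genes for which this library was above all 9 is not given here, so nothing particular to the members follows from that number. Hspa1b was at 1328 CPM (highest with a group, 511.7), Hspa1a at 891.1 CPM (441), Fos at 986.4 CPM (889.9), Junb at 1106 CPM (1037), Egr1 at 751.3 CPM (746.2) and Dnajb1 at 184.2 CPM (179.5).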

How the results depend on the processing

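The calls of Fosb, Egr1, Hspa1a, Hspa1b and Dnajb1 in whole libraries were kept under each alternative run. The number of members called there ran from 6 to 7 with each library left out (6475 of 10516 to 8114 of 12233 genes tested were called). In monocyte-like cells the number of members called ran from 3 to 5 (2600 of 6249 to 3058 of 6945 genes tested were called), and Hspa1a, Hspa1b and Fosb kept their calls. In B cell-like cells the number of members called ran from 5 to 8 with each library left out (1645 of 5996 to 2162 of 6455 genes tested were called). It was 3 with at least 50 cells of the class (1030 of 8551), which left 2 ntCZC libraries. For the difference between the classes it ran from 2 to 3 with each library left out (223 of 8107 to 442 of 7803 genes tested were called). With at least 50 cells 1 ntCZC library was left, too few for a count. Between genotypes it was 0 in each fit that left out a library. Few genes were called there at all, for example 48 of 9132 tested for ntCZC het against wt without ntCZC het replicate 4. The number of members called was 1 without a filter on low counts for ntCZC het against wt (Atf3, 92 of 16317 genes) and for null against het (Fos, 60 of 16317). By DESeq2 it was 1 for ntCZC null against wt, het against wt and null against het (16, 118 and 20 of 16317 genes) and for tissue het against wt (72 of 25756).

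Genes not called changed sign under some settings. For Atf3 in whole libraries the log2 change was -0.16 with RLE scaling, -0.18 by DESeq2, -0.33 in barcodes with at most 20% mitochondrial UMIs, -0.49 with sex and genotype as covariates and -0.36 in males, and -0.0906 to 0.22 with each library left out. In monocyte-like cells Fos was at 0.23 with at least 50 cells and 0.0399 in the Cd300e cluster alone (-0.405 to 0.0133 with a library left out), Jun at -0.17 with no doublets removed and -0.23 in that cluster (-0.17 to 0.29), Junb at 0.31 in that cluster (-0.24 to 0.0132) and Nr4a1 at -0.22 there. In B cell-like cells, with a library left out, Fos ran from -0.29 to 0.77 and Jun from -0.11 to 0.39. For the difference between the classes Atf3 was at 1.10 by DESeq2 and 0.19 with at least 50 cells (-0.69 to 1.36 with a library left out), Hspa1a at -0.15 with at least 50 cells (-0.33 to 0.93), and Jun ran from -0.16 to 0.81. The causes were not tested. Junb in PBMC was 1196 CPM in barcodes that passed the stricter filter, beside 1087.

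Same-numbered libraries of ntCZC and tissue did not deviate together (correlations from -0.05 to 0.03). The labels name no animal for them, 4 of the 6 such pairs share sex and age, and whether they share animals is not settled here. Between kinds of library the replicate block kept only such pairs and no sex covariate, so its fits held fewer libraries. In monocyte-like cells the pairs were wt replicate 1, het replicates 1 and 2 and null replicate 2, and in B cell-like cells the same without wt. With the replicate block, which called 52.6%, 25% and 13% of genes tested in whole libraries, monocyte-like and B cell-like cells, 6 members were called in whole libraries (Jun gained, Junb lost at an adjusted p of 0.0784), 5 in monocyte-like cells (Egr1 gained, 0.0253), 6 in B cell-like cells (Junb lost at 0.168, Atf3 at 0.696) and 0 between genotypes. Signs turned for Atf3 in whole libraries (-0.89) and in monocyte-like cells for Jun (-0.34), Atf3 (-0.20) and Nr4a1 (-0.23).

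The number of genes called between kinds of library moved by over 1.5 times under several settings. Without a filter on low counts it was 10698 of 25796 tested in whole libraries, 5824 of 18362 in monocyte-like and 3191 of 18830 in B cell-like cells. By DESeq2 it was 10845 of 25796 and 4671 of 18362 in the first 2. The main fits called 6891 of 10681, 3017 of 6531 and 2106 of 6072, so these settings called more genes but a lower share. With the block the number was 1637 and 561 in the classes, with at least 50 cells 1030 in B cell-like cells, and in the Cd300e cluster 1401. For the difference, genes called ran from 223 (without ntCZC null replicate 4) to 442 with a library left out, beside 400. Between genotypes (0, 10, 0 and 2 called for ntCZC null against wt, het against wt, null against het and tissue null against wt) they were 4, 92, 60 and 17 with no filter, 16, 118, 20 and 338 by DESeq2, and 0 to 64, 2 to 96, 0 to 25 and 0 to 16 with a library left out. Het against wt in ntCZC was also at 5 with RLE scaling, 3 without the sex covariate and 4 with the block, tissue null against wt at 0 without haemoglobin and mitochondrial genes and with the block, and tissue het against wt at 72 by DESeq2 (0 by edgeR). Depth was low in ntCZC B cell-like cells, with 4 UMIs of Hspa1b in 1659882, and in the smaller PBMC classes.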

Other observations

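Values of the other tissue library without a group, male, lay inside or below the range of the 9 tissue libraries with a group. Hspa1a was at 266.7 CPM and Hspa1b at 274.1 CPM, while Fos was at 233.2 CPM, Fosb at 139.1 CPM, Junb at 317.2 CPM, Egr1 at 106.5 CPM, Atf3 at 125.7 CPM and Nr4a1 at 69.0 CPM. The 2 libraries without a group thus differed for Fos, at 233.2 and 986.4 CPM, and for Hspa1b, at 274.1 and 1328 CPM.

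Hspa1b exceeded Hspa1a in all 9 tissue libraries with a group, whereas Hspa1a was above Hspa1b in 8 of 10 ntCZC libraries and equal to it in 2, and in PBMC the counts were 16 UMIs of Hspa1a and 8 of Hspa1b. No test was run on this order, which was noticed in the data.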
